A study of Mus musculus with 8 samples.

Results

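Amino acid transporters of 7 solute carrier (SLC) families were followed in the esophagus of mice that overexpress IL-33 and of their wild type littermates. The families were SLC1, SLC3, SLC6, SLC7, SLC36, SLC38 and SLC43, and their members were all protein-coding genes whose mouse symbol carries one of these family names followed by a number. The rule found 64 members among the 49315 genes of the count table: 7 in SLC1, 2 in SLC3, 21 in SLC6, 16 in SLC7, 4 in SLC36, 11 in SLC38 and 3 in SLC43. It reads names only, but the families were proposed with the difference between the genotypes already known, with Slc6a14 as their marker. Counts of members that differ are therefore descriptions. Slc6a14 is included in these counts, but it is otherwise given as values, and no test of it is read. Slc7a6os, the gene next to Slc7a6 on the other strand, carries the family name without encoding a carrier, which leaves 63 carrier genes.

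RNA of whole esophagus came from 8 male mice aged 8 weeks on the C57BL/6J strain. The transgenic group, EoE33, held 4 mice that overexpress IL-33, an alarmin cytokine, in the epithelium of the esophagus, and the control group held 4 wild type littermates. The sources used here do not give the promoter that drives the transgene. The contrast concerns what IL-33 overexpression does to the esophageal transcriptome, in a series on eosinophilic esophagitis.

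Cells take up and exchange amino acids through carriers that differ in substrate and in driving force. Most carriers of the SLC1, SLC6, SLC36 and SLC38 families move amino acids together with sodium, chloride or protons and can concentrate them, whereas most SLC7 carriers exchange one amino acid for another. Many SLC7 carriers are light chains that reach the cell surface only when bound to a heavy chain of the SLC3 family, usually the 4F2 heavy chain encoded by Slc3a2 (CD98). When amino acids run short, the kinase encoded by Eif2ak4 and the transcription factor ATF4 raise transcription of several of these carriers, and amino acids inside the cell activate the growth kinase complex mTORC1.

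Promoters are shown for 5 members: Slc6a14, Slc3a2 and Slc7a8, whose transcripts were higher in EoE33, and Slc7a11 and Slc1a4, which were lower and hold the ATF4-type element. Each window runs 5′ to 3′ on the gene's strand, from 250 bases before to 50 after the RefSeq start (GRCm38.p6), with matches to the CEBP-ATF response element in capitals. The windows are chrX:21714650-21714949 (plus strand) for Slc6a14, chr19:8713848-8714147 (minus) for Slc3a2, chr14:54781837-54782136 (minus) for Slc7a8, chr3:50443564-50443863 (minus) for Slc7a11 and chr11:20332664-20332963 (minus) for Slc1a4.
Slc6a14: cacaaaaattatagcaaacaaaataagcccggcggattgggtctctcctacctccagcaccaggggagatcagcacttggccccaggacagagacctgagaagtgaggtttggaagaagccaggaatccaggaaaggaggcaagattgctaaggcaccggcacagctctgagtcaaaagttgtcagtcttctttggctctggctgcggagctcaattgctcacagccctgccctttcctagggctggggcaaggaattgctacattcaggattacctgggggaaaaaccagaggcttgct
Slc3a2: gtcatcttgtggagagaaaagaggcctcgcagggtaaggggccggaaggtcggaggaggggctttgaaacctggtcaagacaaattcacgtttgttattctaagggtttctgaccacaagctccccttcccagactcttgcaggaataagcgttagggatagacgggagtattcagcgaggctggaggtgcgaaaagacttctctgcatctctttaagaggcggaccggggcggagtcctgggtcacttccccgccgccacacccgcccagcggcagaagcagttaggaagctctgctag
Slc7a8: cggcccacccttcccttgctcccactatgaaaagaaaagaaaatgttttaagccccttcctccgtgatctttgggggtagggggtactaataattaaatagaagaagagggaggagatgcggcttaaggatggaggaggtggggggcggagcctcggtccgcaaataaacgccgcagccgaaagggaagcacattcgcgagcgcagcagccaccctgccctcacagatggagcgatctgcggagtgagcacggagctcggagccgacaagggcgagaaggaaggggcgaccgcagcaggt
Slc7a11: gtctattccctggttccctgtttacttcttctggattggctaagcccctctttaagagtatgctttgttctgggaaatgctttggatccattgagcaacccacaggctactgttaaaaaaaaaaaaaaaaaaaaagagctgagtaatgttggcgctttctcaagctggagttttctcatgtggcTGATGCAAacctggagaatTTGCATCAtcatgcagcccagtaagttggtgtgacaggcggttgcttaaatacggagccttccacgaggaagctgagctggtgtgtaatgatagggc
Slc1a4: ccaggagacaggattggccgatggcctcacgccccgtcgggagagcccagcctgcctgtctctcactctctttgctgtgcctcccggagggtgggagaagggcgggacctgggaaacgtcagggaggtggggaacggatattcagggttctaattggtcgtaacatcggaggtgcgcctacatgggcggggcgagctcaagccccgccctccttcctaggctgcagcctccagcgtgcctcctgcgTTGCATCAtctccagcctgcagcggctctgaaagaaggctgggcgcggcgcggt
The RefSeq start of Slc3a2 lies inside the gene as GENCODE annotates it. RefSeq windows were found for 46 of the 64 members, 67 windows in all, and Slc7a5 had none. The CEBP-ATF element was searched on both strands as TGATGNAA. It occurs in 3.97% of all 32851 promoter windows and in 5 windows of 4 members: Slc7a11, Slc1a4, Slc7a7 and Slc6a21. Slc7a11 holds it 2 times, beginning 66 and 47 bases before the start and on opposite strands. Slc1a4 holds it 1 time, beginning 4 bases before the start. A STAT6 motif, TTC and GAA with 4 bases of any kind between them, occurs in 6.95% of all windows and among the members in those of Slc1a7, Slc43a2 and Slc6a19. An antioxidant response motif, TGACNNNGC, occurs in 12.4% of all windows and in those of 9 members: Slc43a1, Slc6a9, Slc7a1, Slc6a11, Slc6a13, Slc6a16, Slc7a6, Slc36a1 and Slc38a2. None of the 3 motifs matched in the printed windows of Slc6a14, Slc3a2 and Slc7a8, and no matches overlap in the windows shown. The promoters differ in CG dinucleotides, with 4 each for Slc6a14 and Slc7a11, 15 for Slc3a2, 20 for Slc7a8 and 21 for Slc1a4, where the median of all windows is 7. A match is a match of letters only.

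Each library held between 17.73 and 24.07 times 1e6 counts. Il33 itself rose from 128.8 ± 27 to 370.8 ± 16.1 CPM, counts per 1e6 counts after scaling (SD over 4 mice). Some libraries stood apart by tissue: wild type replicate 1 held liver transcripts (169 CPM over 7 markers, at most 13.6 in any other library), and wild type replicate 3 held airway transcripts (1079 CPM over 7 markers, at most 7.54 elsewhere). Wild type replicates 1 and 4 held the most adipocyte transcripts and the most smooth muscle transcripts. The tissue itself also differed between genotypes. Of 16 skeletal muscle markers 15 were lower in EoE33, and their sum ranged from 38172 to 41378 CPM in wild type and from 9995 to 13070 CPM in EoE33. Of 10 suprabasal squamous markers 8 were lower and 1 higher, with sums of 63370 to 105419 CPM and of 15433 to 37187 CPM. Of 8 basal keratinocyte markers 7 were higher and 1, Krt15, lower (log2 fold change -1.43), with sums of 3556 to 5111 CPM and of 16227 to 19958 CPM. All 8 cell cycle markers and all 7 neutrophil markers were higher. None of these lists has a marker at 0 in every library. The part of these differences in the results on carriers was not tested, and in bulk tissue fewer cells of a type and less RNA per cell cannot be told apart.

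Of the 64 members, 43 passed the filter on low counts. EdgeR's quasi-likelihood test, with p-values adjusted over all 16760 genes tested, called 11 of the 43 higher, the marker Slc6a14 among them, and 21 lower in EoE33, and 11 passed in neither direction. Over all genes 63.4% were called, 31.3% higher and 32.1% lower. The median log2 fold change of the tested members was -0.38, and that of all tested genes -0.01. At least 2-fold were 6 members higher and 13 lower, where 12.3% and 14.9% of all tested genes were. Groups did not overlap for 11 members that were higher and 16 that were lower, against 29.6% and 29.9% of all tested genes. No reading is drawn from these shares, since the families were chosen with this contrast known. When the fit also held a term for skeletal muscle content, none of the 31 called members other than the marker passed the threshold. Their edgeR adjusted p then lay between 0.145 and 0.989. Nearly all calls were lost over all genes too, where 18 were higher and 0 lower with this term. Of the 31, 5 turned direction (Slc3a2, Slc6a19, Slc6a4, Slc38a7 and Slc38a10), 15 kept it with a smaller log2 fold change and 11 kept it with one as large or larger. Slc6a20a stood at 3.20 with this term and 2.75 without it, Slc6a17 at -2.38 and -1.85, Slc7a8 at 1.85 and 4.29, Slc3a2 at -0.24 and 1.66, and Slc6a19 at 0.24 and -4.11. The muscle sums of the groups do not overlap, so muscle content and genotype cannot be told apart. Without wild type replicates 1 and 4, the libraries richest in adipocyte and smooth muscle transcripts, 9 members were higher and 15 lower, an alternative chosen after seeing the data. Calls over all genes fell as well, from 5238 to 4334 higher and from 5383 to 4284 lower.

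**Figure D1:**
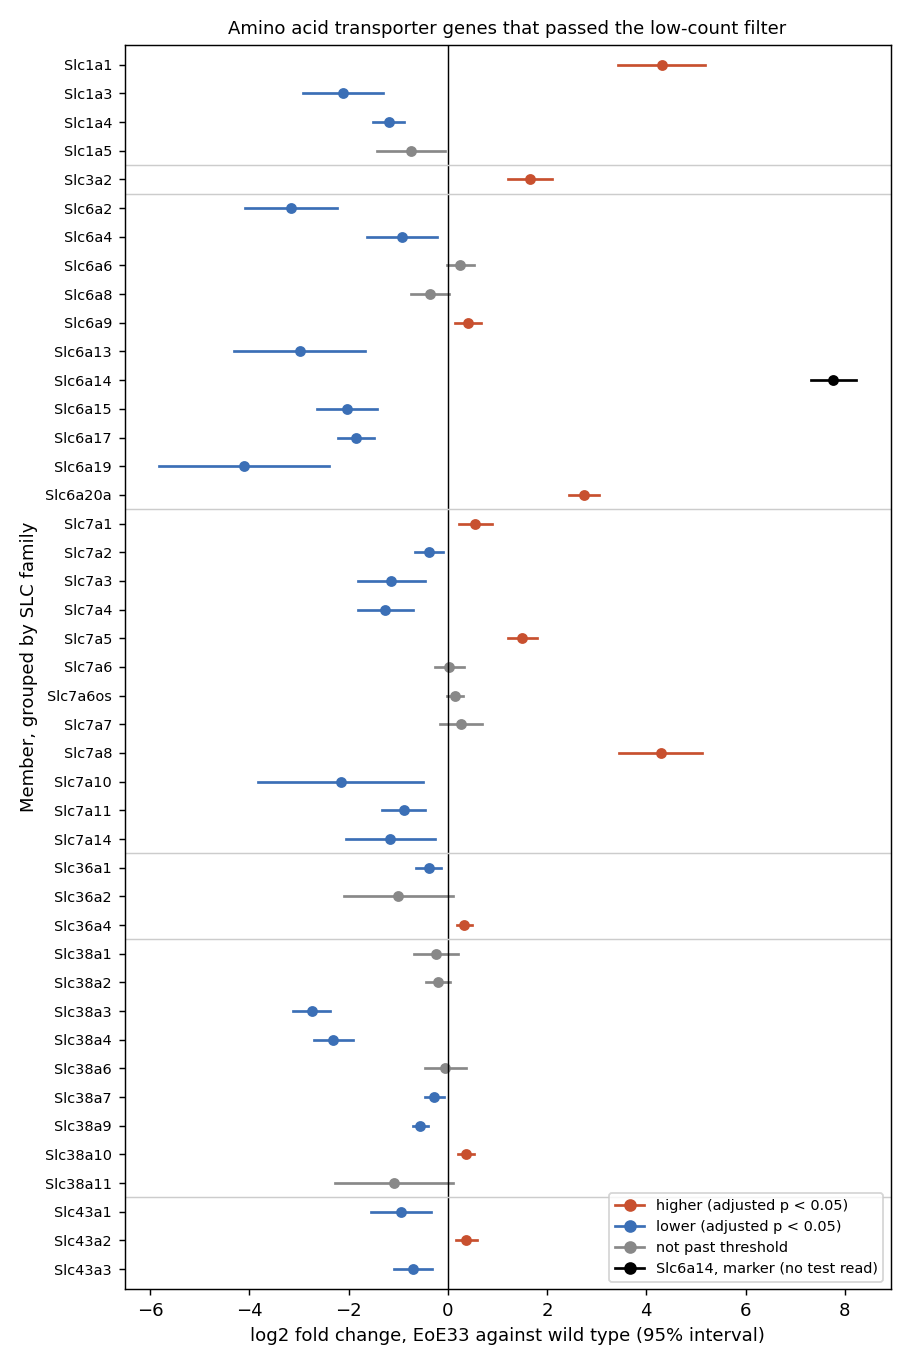
Log2 fold change of EoE33 against wild type (x axis) for the 43 members that passed the filter on low counts (y axis, grouped by SLC family), with 95% intervals as lines and the call as colour, and with the marker Slc6a14 in black at 7.76. The other members called higher lie between 0.33 (Slc36a4) and 4.31 (Slc1a1), and the 21 called lower between -0.27 (Slc38a7) and -4.11 (Slc6a19).

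Among the SLC6 carriers of amino acids, 3 of 6 tested members were higher, the marker Slc6a14 included, and 3 lower. Slc6a14 (ENSMUSG00000031089, chromosome X from 21714896 to 21742355 in GRCm38) encodes a carrier of broad specificity that concentrates neutral and cationic amino acids with sodium and chloride. Its level was 2.12, 2.11, 2.03 and 1.58 CPM in wild type replicates 1 to 4, the order kept for every gene, and 499, 507, 367 and 336 CPM in EoE33 replicates 1 to 4. Every EoE33 library lay far above every wild type library, and the ratio was 217-fold (log2 fold change 7.76, SE 0.20). Slc6a20a encodes a carrier of proline and other imino acids. It stood at 3.22, 2.81, 3.38 and 2.61 CPM in wild type and at 23.3, 17.9, 18.1 and 21.5 CPM in EoE33. The groups were well apart, with a 6.72-fold rise (log2 fold change 2.75, SE 0.13, edgeR adjusted p = 8.47e-07). Of the 150-base windows of its exons 5.66% also occur in its paralog Slc6a20b, which had 10 and 11 counts in the 2 groups, and its exons overlap the opposite-strand gene Ccr9, at 2.07 and 2.43 CPM. Slc6a9, the glycine transporter, rose from 16.6 ± 2.17 to 22.1 ± 2.12 CPM (SD over 4 mice; log2 fold change 0.41, edgeR adjusted p = 0.011). Without wild type replicates 1 and 4 its adjusted p was 0.0515. Its exons overlap the opposite-strand genes B4galt2, at 8.40 and 6.49 CPM, and Ccdc24, at 0.503 and 0.519 CPM.

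Slc6a19, the main sodium-coupled carrier of neutral amino acids in intestine and kidney, fell the most among the tested members. In wild type it stood at 78.2, 95.4, 107.6 and 55.4 CPM, and in EoE33 at 8.49, 0.35, 1.72 and 8.83 CPM. No EoE33 library came near the lowest wild type library, although EoE33 replicates 2 and 3 lay well below replicates 1 and 4. The fall was 17.2-fold (log2 fold change -4.11, SE 0.73, edgeR adjusted p = 0.00176). The summed suprabasal squamous markers were also lowest in EoE33 replicates 2 and 3, at 15433 and 21711 CPM, and stood at 37187 and 33393 CPM in replicates 1 and 4; their part in the fall was not tested. Slc6a15 and Slc6a17 encode related carriers of neutral amino acids that are best known from neurons. Slc6a15 stood at 2.88, 1.45, 2.16 and 2.01 CPM in wild type and at 0.48, 0.53, 0.60 and 0.45 CPM in EoE33 (4.09-fold lower, edgeR adjusted p = 0.000151). Slc6a17 fell from 15.6, 14.3, 11.8 and 17.2 CPM to 4.96, 3.51, 4.27 and 3.54 CPM (log2 fold change -1.85, edgeR adjusted p = 1.25e-05). Neither pair of groups overlapped.

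The SLC6 carriers of neurotransmitters, osmolytes and creatine held no member called higher: 3 of 5 tested were lower and 2 did not pass. Slc6a2, the noradrenaline transporter, stood at 45.9, 47.3, 40.0 and 51.1 CPM in wild type and at 6.72, 1.93, 3.19 and 8.73 CPM in EoE33. The wild type libraries lay close together, and the EoE33 libraries were spread over a wider relative range, with a coefficient of variation of 61% against 9.97%. The fall was 8.91-fold (log2 fold change -3.16, SE 0.40, edgeR adjusted p = 0.000256). All 7 tested enteric neuron markers were lower too, and the sum of the list ranged from 206 to 284 CPM in wild type and from 30.7 to 59.4 CPM in EoE33, most of it Nos1. Their part in the fall of Slc6a2 was not tested. Slc6a13, a carrier of GABA and taurine, stood at 3.98, 1.54, 0.89 and 4.62 CPM in wild type and at 0.29, 0.23, 0.30 and 0.55 CPM in EoE33 (log2 fold change -2.98, edgeR adjusted p = 0.00185). Slc6a4, the serotonin transporter, was at 2.87 ± 1.11 and 1.497 ± 0.436 CPM (SD over 4 mice), and its groups overlapped. Its edgeR adjusted p of 0.0264 became 0.0686 without wild type replicate 3, 0.0619 without EoE33 replicate 2 and 0.0636 without EoE33 replicate 4. The abundant taurine carrier Slc6a6 and creatine carrier Slc6a8 did not pass. Slc6a6 stood at 128.7 ± 4.29 and 153 ± 28.7 CPM (edgeR adjusted p = 0.0866), and 0.0275 without EoE33 replicate 2. Slc6a8 stood at 199.9 ± 15.3 and 156 ± 40.9 CPM (edgeR adjusted p = 0.0969), and 0.0367 without EoE33 replicate 4.

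**Figure D2:**
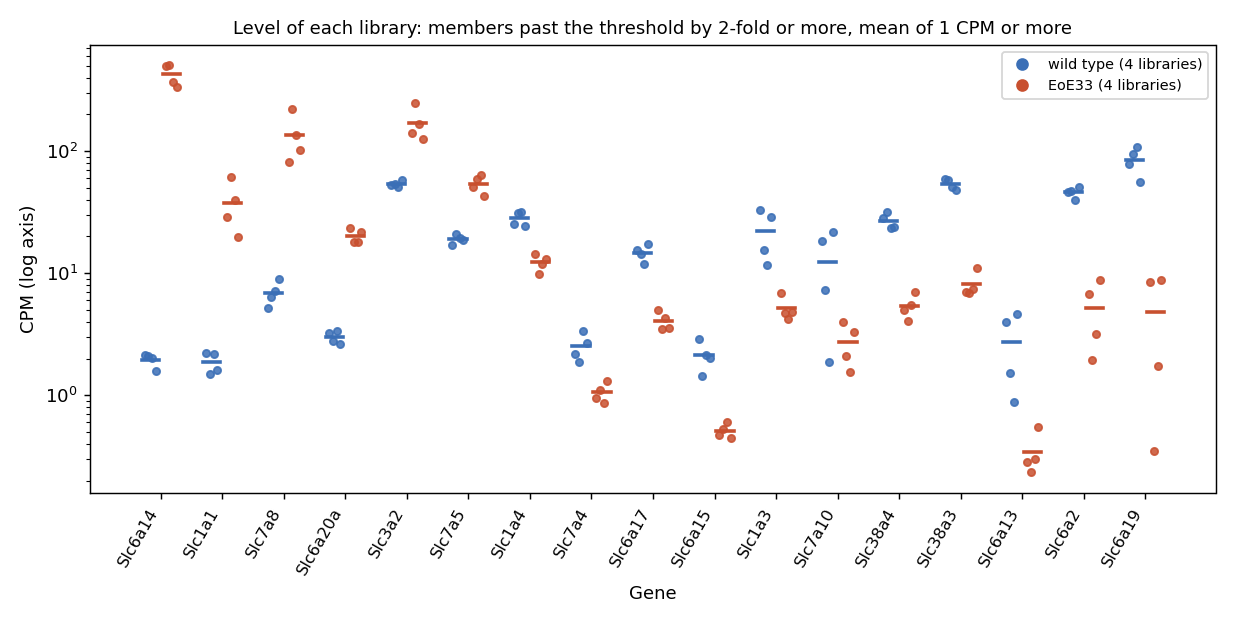
Level of each library in CPM (y axis, log scale) for the members called with at least a 2-fold difference and a mean of at least 1 CPM (x axis), with 4 wild type and 4 EoE33 libraries as points and the group means as lines. Slc6a14 has the widest gap, from at most 2.12 CPM in wild type to at least 336 CPM in EoE33, and among the genes shown only Slc7a10 has overlapping groups.

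The heavy chain gene Slc3a2 and 2 of its 6 tested light chains rose. Slc3a2 stood at 52.8, 54.2, 50.9 and 58.3 CPM in wild type and at 141, 247, 167 and 127 CPM in EoE33. All EoE33 libraries were higher, replicate 2 most of all, and the rise was 3.15-fold (log2 fold change 1.66, SE 0.19, edgeR adjusted p = 0.000107). Slc7a8 encodes a light chain that exchanges neutral amino acids of many sizes. It stood at 5.17, 6.36, 7.14 and 8.94 CPM in wild type and at 82.0, 223, 134 and 102 CPM in EoE33. EoE33 replicate 2 was again highest, and the rise was 19.6-fold (log2 fold change 4.29, SE 0.36, edgeR adjusted p = 2.75e-05). Slc7a5 encodes the light chain that takes up leucine and other large neutral amino acids. It rose from 16.9, 21.1, 19.4 and 18.9 CPM to 51.3, 58.9, 63.5 and 42.6 CPM, a 2.83-fold rise without overlap (edgeR adjusted p = 1.1e-05).

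None of the other 4 tested light chains was called higher. Slc7a6, a light chain for cationic amino acids and glutamine, had a log2 fold change of 0.03 with a 95% interval from -0.26 to 0.33. Slc7a7, a light chain of the same transport type, had 0.27 with an interval from -0.15 to 0.69, and its exons overlap the opposite-strand gene Oxa1l, which stood at 44.2 and 40.3 CPM. Slc7a11 encodes the cystine and glutamate exchanger that supplies cysteine for glutathione. It stood at 29.8, 31.5, 20.9 and 32.1 CPM in wild type and at 19.7, 10.8, 15.0 and 15.8 CPM in EoE33. The lowest wild type library lay just above the highest EoE33 library (log2 fold change -0.89, SE 0.19, edgeR adjusted p = 0.00315). Slc7a10 encodes a light chain for small neutral amino acids such as serine. It stood at 18.4, 7.28, 1.86 and 21.6 CPM in wild type and at 4.01, 2.10, 1.55 and 3.29 CPM in EoE33, so the groups overlapped. Its edgeR adjusted p of 0.0292 (log2 fold change -2.16) lay between 0.0572 and 0.0768 when wild type replicate 1 or 4 or EoE33 replicate 2, 3 or 4 was left out, and it was 0.162 with limma-voom. Its exons overlap the opposite-strand gene Lrp3, which stood at 16.1 and 5.86 CPM.

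On a scale of length, Slc3a2 and the sum of the 6 tested light chains were of similar size in both genotypes. In CPM per kilobase of exon, Slc3a2 rose from 15.3 ± 0.884 to 48.2 ± 15.2 and the light chain sum from 20.4 ± 4.81 to 50.4 ± 14.2 (SD over 4 mice). The ratio of heavy chain to light chains was 0.776 ± 0.158 and 0.953 ± 0.0741, and its wild type value was 1.05 without Slc7a10. The composition of the light chain sum differed between genotypes. Slc7a8 took 7.0% ± 2.08 of the sum in wild type and 51.8% ± 8.87 in EoE33. Slc7a5 took 26.5% ± 7.8 and 29.8% ± 5.69, Slc7a6 24.2% ± 5.01 and 9.91% ± 1.55, and Slc7a10 25.7% ± 16.3 and 2.89% ± 1.75. Slc3a1, the other heavy chain gene, was not tested, with 7 counts in wild type and 12 in EoE33.

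**Figure D3:**
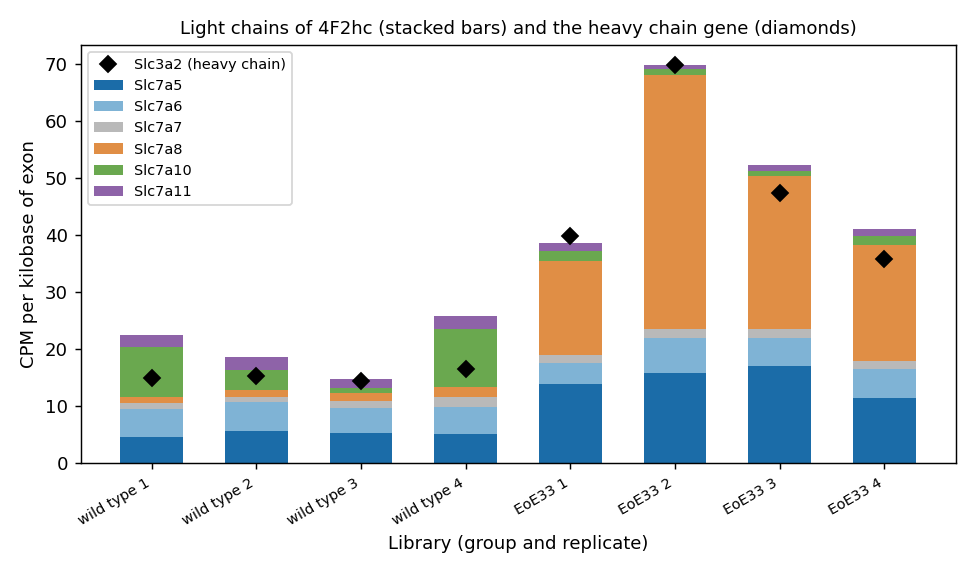
Level of the 6 light chains (stacked bars) and of the heavy chain gene Slc3a2 (diamonds) in each library (x axis), in CPM per kilobase of exon (y axis, from 0). Slc7a8 takes on average 51.8% of the light chain sum in EoE33 and 7.0% in wild type, and Slc3a2 and the sum are both highest in EoE33 replicate 2.

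The cationic amino acid carriers of SLC7 and their relatives work without a heavy chain. Slc7a1 is the widespread arginine and lysine carrier. It rose from 46.8, 46.9, 45.3 and 36.8 CPM to 54.7, 79.7, 72.4 and 51.4 CPM (log2 fold change 0.55, SE 0.15, edgeR adjusted p = 0.00998). The groups did not overlap, and without wild type replicates 1 and 4 the adjusted p was 0.0763. Slc7a2, the cytokine-inducible arginine carrier, stood at 39.5, 42.2, 41.5 and 36.4 CPM in wild type and at 27.6, 40.2, 28.0 and 27.0 CPM in EoE33. EoE33 replicate 2 lay within the wild type range. Its edgeR adjusted p of 0.028 (log2 fold change -0.38) lay between 0.053 and 0.0847 when wild type replicate 1, 2 or 3 or EoE33 replicate 1, 3 or 4 was left out. Slc7a4, an orphan relative, fell from 2.52 ± 0.64 to 1.06 ± 0.191 CPM (log2 fold change -1.26, edgeR adjusted p = 0.00154). It overlaps the opposite-strand gene P2rx6, which stood at 16.1 and 3.35 CPM. Slc7a3 and Slc7a14, both at about 1 CPM or less, had log2 fold changes of -1.14 and -1.16. Slc7a3 was called lower (edgeR adjusted p = 0.00834), and its groups did not overlap. Slc7a14 passed with an edgeR adjusted p of 0.0299 and lost its call when leaving out wild type replicate 2 or 3 or EoE33 replicate 2, 3 or 4.

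In the SLC1 family the carrier Slc1a1 rose and Slc1a3 fell, both of which take up glutamate and aspartate. Slc1a1, also a route of cysteine uptake, stood at 2.20, 1.49, 2.20 and 1.63 CPM in wild type and at 28.7, 61.1, 39.9 and 19.7 CPM in EoE33. All EoE33 libraries lay far above wild type, with replicate 2 highest, and the rise was 19.8-fold (log2 fold change 4.31, SE 0.38, edgeR adjusted p = 2.85e-05). Slc1a3, best known from glia, stood at 32.7, 15.5, 11.7 and 28.9 CPM in wild type and at 6.91, 4.68, 4.18 and 4.79 CPM in EoE33 (4.31-fold lower, edgeR adjusted p = 0.00089). The groups did not overlap, and wild type replicates 1 and 4 were the highest. Without those replicates the log2 fold change of -2.11 was -1.42. Slc1a4 and Slc1a5 exchange small neutral amino acids, Slc1a5 mainly glutamine. Slc1a4 fell from 25.1, 31.0, 31.9 and 24.3 CPM to 14.3, 9.88, 11.9 and 13.1 CPM (log2 fold change -1.19, edgeR adjusted p = 6.82e-05). Slc1a5 stood at 226, 118, 93.2 and 221 CPM in wild type and at 109.6, 113, 85.2 and 87.4 CPM in EoE33, and its groups overlapped. Its edgeR adjusted p was 0.0577, and it passed the threshold without wild type replicate 2 (0.0441) or 3 (0.00931) and with DESeq2 (adjusted p = 0.0143).

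A group of 6 members, chosen after their values were seen, was highest in the libraries richest in adipocyte transcripts. The 6 adipocyte markers summed to 1038, 391, 184 and 1119 CPM in wild type replicates 1 to 4 and to 308, 170, 106 and 258 CPM in EoE33 replicates 1 to 4. Adipoq, Plin1, Cidec and Lep were lower, Fabp4 and Ucp1 did not pass the test, and none of the 6 was at 0 in every library. Slc7a10, Slc36a2, Slc6a13, Slc1a3, Slc1a5 and Slc43a1 all had their highest levels in wild type replicates 1 and 4. So did Slc38a1, Slc6a17 and Slc43a3, which were left out of the 6. Their log2 fold changes of -0.24, -1.85 and -0.70 were 0.07, -1.69 and -0.55 without wild type replicates 1 and 4. Without those libraries the log2 fold change was -0.75 for Slc7a10, -0.03 for Slc36a2, -1.81 for Slc6a13, -0.11 for Slc1a5 and -0.35 for Slc43a1. Members highest in these libraries must have lower wild type means without them. The smaller falls thus follow from the choice of members, and nothing is read from them. Of the 6, Slc1a3 and Slc6a13 were still called (edgeR adjusted p = 0.00221 and 0.0113), while Slc1a5 and Slc36a2 were not called with all 8 libraries either. Other markers had this order too. Smooth muscle markers summed to 6090, 5001, 3400 and 7022 CPM in wild type replicates 1 to 4 and to at most 2432 CPM in EoE33. Des alone held 2761, 2797, 2296 and 2915 CPM of this in wild type and at most 1053 CPM in EoE33. Of the 8 smooth muscle markers 5 were lower and 3 did not pass. Only for 2 of them, Des and Lmod1, did the groups not overlap. Within wild type, endothelial markers (261 and 317 CPM) and Krt1, Krt10 and Flg were also highest in replicates 1 and 4. Leaving out both libraries cannot tell these tissues apart. The part of adipose or any other tissue in the results with all 8 libraries was not tested beyond this.

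**Figure D4:**
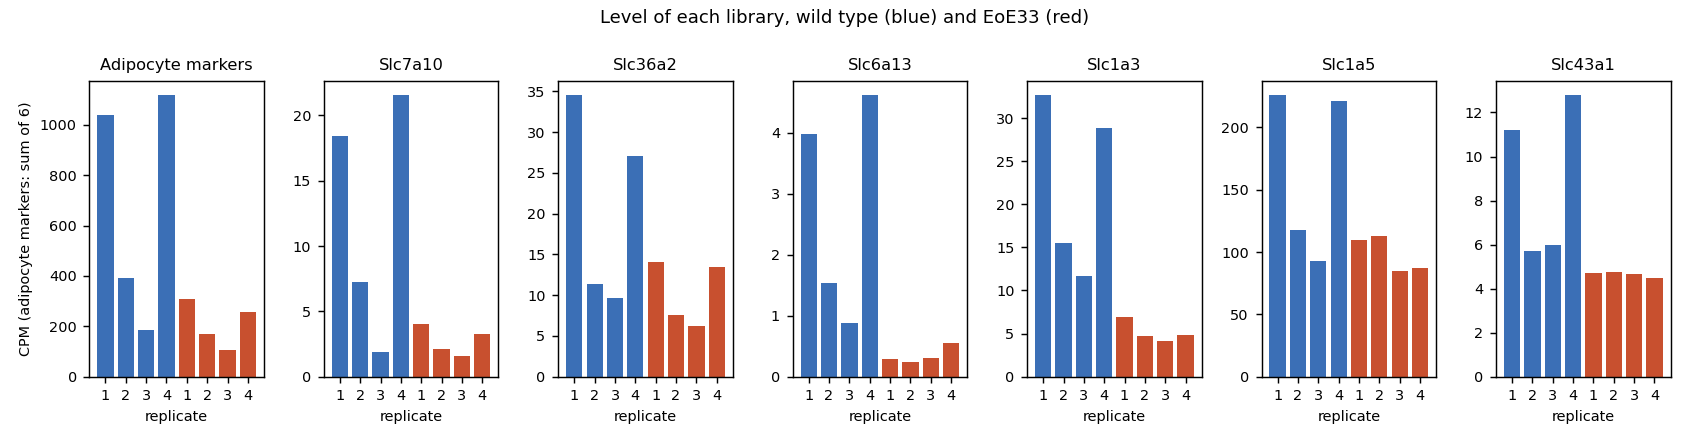
Summed adipocyte markers and 6 members in each library (x axis, replicate number; blue wild type, red EoE33), in CPM on y axes that start at 0 and differ between panels. In each panel wild type replicates 1 and 4 are the 2 highest libraries, for example 1038 and 1119 CPM for the marker sum.

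SLC38 carriers take up glutamine, alanine and other small neutral amino acids with sodium, and 2 of the 9 tested fell strongly. Slc38a3, a glutamine carrier known from liver, kidney and muscle, stood at 59.2, 58.3, 50.9 and 47.6 CPM in wild type and at 6.96, 6.84, 7.45 and 11.1 CPM in EoE33. The groups were far apart, a 6.66-fold fall (log2 fold change -2.74, SE 0.16, edgeR adjusted p = 1.95e-06). Its relative Slc38a4 stood at 28.4, 31.6, 23.3 and 23.9 CPM in wild type and at 5.01, 4.03, 5.52 and 7.03 CPM in EoE33 (4.95-fold lower, edgeR adjusted p = 5.82e-06). It encodes a carrier of neutral amino acids best known from liver and placenta. Smaller falls were those of Slc38a9, a lysosomal arginine sensor of mTORC1, from 25.6 ± 1.39 to 17.4 ± 0.735 CPM (log2 fold change -0.55, edgeR adjusted p = 0.000126), and of Slc38a7, at -0.27. Slc38a7 passed with an edgeR adjusted p of 0.0214 and lost its call when leaving out wild type replicate 1 or EoE33 replicate 1, 2 or 3. Slc38a10 rose from 79.0 ± 6.27 to 101.6 ± 3.22 CPM (SD over 4 mice; log2 fold change 0.36, edgeR adjusted p = 0.0013). Slc38a2, the carrier best known for its rise when amino acids are scarce, did not pass. It stood at 393, 398, 376 and 359 CPM in wild type and at 274, 399, 337 and 322 CPM in EoE33 (log2 fold change -0.19, 95% interval from -0.44 to 0.05, edgeR adjusted p = 0.144), and its adjusted p was 0.021 without EoE33 replicate 2. Slc38a1 and Slc38a6 did not pass either. Slc38a11, at 0.903 ± 0.474 and 0.412 ± 0.233 CPM (log2 fold change -1.08, edgeR adjusted p = 0.0996), was called without wild type replicate 1 (adjusted p = 0.0281).

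The SLC36 family holds carriers of small amino acids such as glycine, alanine and proline, most of them coupled to protons, and 1 of its 3 tested members was called higher and 1 lower. Slc36a1 fell from 32.6 ± 4.74 to 25.0 ± 2.48 CPM (SD over 4 mice; edgeR adjusted p = 0.0152) with overlapping groups, and its adjusted p was 0.0934 without wild type replicates 1 and 4. Slc36a4 rose from 21.3 ± 1.1 to 26.9 ± 1.33 CPM without overlap (edgeR adjusted p = 0.00225). Slc36a2 stood at 34.5, 11.4, 9.63 and 27.1 CPM in wild type and at 14.1, 7.60, 6.25 and 13.5 CPM in EoE33, did not pass (1.997-fold lower in EoE33, edgeR adjusted p = 0.101), and was called without wild type replicate 3 and with DESeq2 (adjusted p = 0.0432 and 0.0318). The SLC43 family holds facilitative carriers of large neutral amino acids, Slc43a1 and Slc43a2, and the purine base carrier Slc43a3. Slc43a2 rose from 31.2 ± 1.81 to 40.4 ± 4.74 CPM (SD over 4 mice; edgeR adjusted p = 0.0058). Slc43a3 fell from 59.2 ± 10.1 to 36.5 ± 7.65 CPM (edgeR adjusted p = 0.00641), and its adjusted p was 0.0524 without wild type replicates 1 and 4. Slc43a1 stood at 11.2, 5.70, 6.00 and 12.8 CPM in wild type and at 4.72, 4.73, 4.65 and 4.49 CPM in EoE33 (edgeR adjusted p = 0.0123). Without wild type replicates 1 and 4 its adjusted p was 0.0841.

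Compared per kilobase of exon, the order of the carriers differed between genotypes. In wild type, Slc38a2 (43.1 ± 2.03 CPM per kilobase), Slc1a5 (39.4 ± 16.5) and Slc6a8 (38.4 ± 2.93) led with overlapping ranges (SD over 4 mice). Slc6a19 came next at 16.8 ± 4.52, beside Slc3a2 at 15.3 ± 0.884 and Slc6a6 at 15.2 ± 0.507. In EoE33, Slc6a14 led at 124 ± 25.8 CPM per kilobase and its range did not overlap that of the next gene, Slc3a2, at 48.2 ± 15.2. Slc38a2 at 37.7 ± 5.83, Slc6a8 at 29.96 ± 7.85 and Slc7a8 at 27.0 ± 12.4 followed, each overlapping its neighbours in the order. Slc6a14 made up 0.194% of the summed level of all 63 carriers in wild type, where it ranked 37, and 30.1% in EoE33. Slc6a19 went from rank 4 to rank 29.

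Summed over all 63 carriers, the level per kilobase was 295 ± 23.8 in wild type and 413 ± 46.6 in EoE33 (SD over 4 mice). This difference rests on the marker Slc6a14: without it, the other 62 carriers summed to 294 ± 23.8 and 289 ± 28.5, and the groups overlapped. The SLC3, SLC6 and SLC7 sums were higher in every EoE33 library, that of SLC6 through Slc6a14 alone. The other 20 SLC6 members summed to 85.3 ± 6.07 in wild type and 60.2 ± 12.9 in EoE33, lower in every EoE33 library. SLC3 rose from 15.3 ± 0.863 to 48.3 ± 15.2, SLC6 from 85.9 ± 6.14 to 185 ± 23.8 and SLC7 from 29.7 ± 4.23 to 59.8 ± 16. Slc6a14 held 67.4% of the SLC6 sum in EoE33, where Slc6a8 held 44.7% in wild type, and Slc7a8 held 45.1% of the SLC7 sum in EoE33. The SLC38 sum was lower in every EoE33 library, at 80.8 ± 3.39 and 63.5 ± 5.91. Sums of SLC1 (49.6 ± 16.8 and 32.1 ± 4.74), SLC36 (15.4 ± 4.03 and 11.7 ± 1.54) and SLC43 (17.9 ± 2.93 and 13 ± 1.69) overlapped between genotypes. These sums carry no test, since members are not replicates and the lead genes were known.

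**Figure D5:**
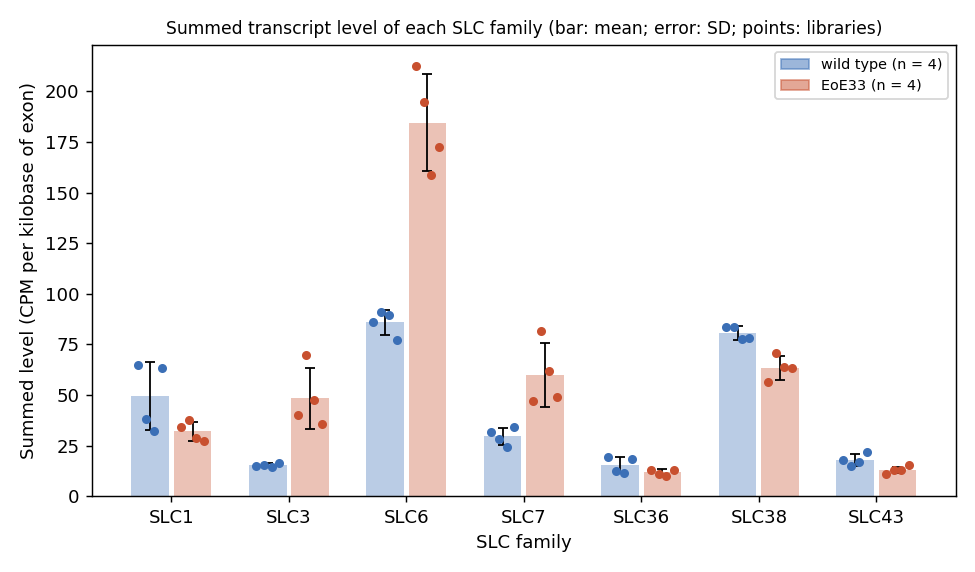
Summed level of each SLC family (x axis) in CPM per kilobase of exon (y axis, from 0), with bars for the group means, error bars for the SD and points for the 4 libraries of each group. The SLC6 sum is the highest in EoE33 at 185, of which Slc6a14 makes up 67.4%, and the SLC38 sum falls from 80.8 to 63.5.

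The other 21 members did not pass the filter and had between 0 and 69 counts over the 8 libraries. Their highest level in any library was 0.763 CPM, where a floor of 3 counts corresponds to 0.125 to 0.169 CPM. Slc6a3, the dopamine transporter, and Slc7a12 had 0 counts in all libraries. Slc7a9 and Slc6a18, carriers of kidney and intestine, had 1 and 4 counts in wild type and 0 in EoE33, summed over 4 libraries. At these depths a difference was not detectable for them. Slc6a11 and Slc6a12, which encode carriers of GABA and betaine, had 23 and 29 counts in wild type and 2 and 10 in EoE33. Of the glutamate carriers, Slc1a2, Slc1a6 and Slc1a7 had 47, 16 and 29 counts in wild type and 22, 14 and 20 in EoE33.

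Members that lie beside each other on a chromosome did not move alike in all cases. Slc7a8 lies 304 kb from Slc7a7 on chromosome 14, and their log2 fold changes were 4.29 and 0.27. On chromosome 15, Slc38a4 (-2.31) lies 295 kb from Slc38a2 (-0.19), which lies 44.5 kb from Slc38a1 (-0.24). Slc43a1 and Slc43a3, 73 kb apart on chromosome 2, had -0.94 and -0.70. Slc6a19 lies 1.72 kb from Slc6a18 on chromosome 13, and Slc6a20a 2.2 kb from Slc6a20b on chromosome 9, in both cases beside a gene with too few counts to test. A difference between neighbours was not tested.

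Genes around the carriers were read in lists chosen with earlier results of these data known, each beside 31.3% of all tested genes called higher and 32.1% lower. Of 24 tested genes of the ATF4-driven amino acid response and serine synthesis, 14 were higher and 7 lower (median log2 fold change 0.53). Atf4 itself rose from 147 ± 8.54 to 202 ± 27.4 CPM (SD over 4 mice; edgeR adjusted p = 0.00262). Asns, which makes asparagine, rose 2.02-fold, and the one-carbon enzyme gene Mthfd2 2.55-fold. Aldh18a1, which starts proline synthesis from glutamate, rose 2.47-fold (edgeR adjusted p = 7.37e-06, 6e-06 and 5.73e-06 for the 3 genes). The 7 lower genes, named after their values were seen, were Vldlr (2.84-fold), Atf5 (2.18-fold), Trib3 (1.63-fold), Cth (1.54-fold), Stc2 (1.45-fold), Cebpb (1.41-fold) and Ddit3 (1.23-fold). All 4 eIF2alpha kinase genes were higher, with Eif2ak3 at 2.30-fold, Eif2ak2 at 1.84-fold and Eif2ak4, the sensor of uncharged tRNA, at 1.44-fold. Of 20 genes of cytosolic aminoacyl-tRNA synthetases, 10 were higher and 1 lower, by small folds such as 1.60 for Vars, 1.51 for Tars and 1.41 for Qars (median 0.18). Of 32 genes of amino acid sensing by mTORC1, 7 were higher and 14 lower (median -0.16). The Rag GTPase gene Rragd was 3.65-fold and the sestrin gene Sesn3 1.65-fold lower, and Sec13 was 1.70-fold higher.

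Enzymes that use the imported amino acids moved in both directions. In arginine and polyamine metabolism 12 of 19 tested genes were higher and 4 lower (median 0.83). Arg1, which splits arginine to ornithine and urea, rose from 121 ± 33 to 2400 ± 490 CPM (SD over 4 mice; 19.9-fold, edgeR adjusted p = 1.83e-06), and Odc1, which starts polyamine synthesis, rose 2.37-fold. Oaz2, an antizyme gene, and Sms, the spermine synthase gene, were 2.36-fold and 2.40-fold lower. Macrophage markers, among which Arg1 does not count, summed to 391 to 800 CPM in wild type and to 789 to 1044 CPM in EoE33, and their part in the rise of Arg1 was not tested. In glutamine, glutamate and glutathione metabolism 9 of 19 genes were higher and 6 lower (median 0.15). Gfpt1, which takes glutamine into hexosamine synthesis, rose 6.68-fold, the glutathione reductase gene Gsr 5.31-fold and Gclm 2.38-fold. Of 15 tested genes of branched-chain amino acid, tryptophan and serotonin metabolism, 3 were higher and 7 lower (median -0.56). Tph1, the tryptophan hydroxylase of mast cells and other non-neuronal cells, rose 20.1-fold, while the neuronal Tph2 was 6.16-fold and Maob 3.32-fold lower. Mast cell markers summed to 19.8 to 72.4 CPM in wild type and to 101 to 175 CPM in EoE33, and their part in the rise of Tph1 was not tested.

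Of 9 genes of taurine, creatine and carnitine synthesis, 1 was higher and 6 lower (median -0.86). The exception was Bbox1, which completes carnitine synthesis, with a 33.8-fold rise, while Gadl1 and the creatine synthesis gene Gamt were 4.08-fold and 2.86-fold lower. Of 14 tested genes of other amino acid and peptide carriers, 2 were higher and 7 lower (median -0.38). Slc15a3, a lysosomal carrier of peptides and histidine, rose 9.73-fold. The mitochondrial carriers Slc25a12 (aspartate and glutamate) and Slc25a22 (glutamate) were 2.80-fold and 1.96-fold lower. Of 10 tested genes that regulate heteromeric carriers or surface uptake, 5 were higher and 2 lower (median 0.29). Cd44 and Bsg, which encode surface glycoproteins that associate with such complexes, rose 2.59-fold and 1.65-fold, and the kinase gene Sgk3 1.99-fold. Nfe2l2, which encodes a transcriptional activator of Slc7a11, was lower (log2 fold change -0.51, edgeR adjusted p = 0.00208). Myc was higher at 0.40 (edgeR adjusted p = 0.0375), and lost its call without any 1 of the 4 wild type replicates, with adjusted p between 0.0565 and 0.0811.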

How the data were processed

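Polyadenylated RNA of 8 whole esophagi was sequenced in paired-end mode, per the labels' protocols. The deposited file holds raw counts, 1 column for each of 8 libraries, which were assigned to samples by the spreadsheet letter in each sample's description. The submitters' processing notes name Trimmomatic 0.36, STAR 2.5.2b, featureCounts, Subread 1.5.2 and GRCm38. The use of strand and of reads matching several places is not given in the sources used here, so opposite-strand overlaps cannot be told apart.

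Symbols, biotypes and exon lengths came from GENCODE M21 (GRCm38), which matched 49056 of the 49315 identifiers; 67 symbols fit the name rule, and 3 that are not protein-coding were dropped. Every pair of libraries of a group differed by more than sampling noise (chi-square over its degrees of freedom 10.38 to 70.1). Genes were filtered with filterByExpr by group, which kept 16760, scaled by TMM and tested by glmQLFit (robust = TRUE) and glmQLFTest of edgeR 4.0.16 with genotype as the only term, in R 4.3.3. The threshold was a Benjamini-Hochberg adjusted p of 0.05 over all tested genes. The procedure was also run on simulated data in which far fewer genes differed than here. That run therefore does not show how scaling and error rates hold when 63.4% of genes are called. Standard errors were derived from the F statistic. CPM uses TMM-scaled library sizes, and CPM per kilobase divides by the union of annotated exons. The floor of 3 counts covers counting error only, because duplicated reads could not be collapsed by molecular identifiers. The labels do not give litters or batches, so an effect of either could not be separated from genotype. The p-values set the difference between genotypes against the spread between mice of the same genotype.

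The members, lists and markers were chosen with earlier results of these data known. Named were Slc6a14, members called at 2-fold with a mean of 1 CPM or more, the 2 most abundant of each family, the heavy and light chains, the 3 smallest p-values of each list, Atf4, Asns, Arg1, Odc1, Nfe2l2 and Myc, and members with a library far from the others; other members were named to account for all, after their values were seen. Alternatives were DESeq2 size factors, library size only, scaling without Chil4, DESeq2 1.42.0, limma-voom (limma 3.58.1), other filters, a replicate or muscle term, the longest transcript as length, and leaving out libraries. Promoter windows came from RefSeq (GRCm38.p6). The results of 2 genes, 1 of them a member, are not reported here.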

Additional observations from a re-analysis of the deposited data

Results flagged for a closer look

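In 5 of 86 sets of 4 libraries, 1 library lay far from the other 3, its gap to the nearest taking more of the whole range than Dixon's 95% limit for 4 values allows; chance gives about 1 in 20 such sets, or 4.3 of 86. Slc6a14 was lowest in wild type replicate 4, at 1.58 CPM where the others lay between 2.03 and 2.12 CPM. Slc7a1 was lowest in the same library, at 36.8 CPM against 45.3 to 46.9 CPM. Slc38a7 was highest in wild type replicate 1, at 23.1 CPM against 20.8 to 21 CPM. Slc7a2 was highest in EoE33 replicate 2, at 40.2 CPM against 27.0 to 28.0 CPM. Slc38a3 was highest in EoE33 replicate 4, at 11.1 CPM against 6.84 to 7.45 CPM.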

How the results depend on the processing

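Of 813 recomputed values of members, 719 kept their direction and their side of the threshold, 65 kept the direction but missed it, 13 passed it anew and 16 turned direction. The 32 called members were 32 under both other scalings and without the counts of Chil4, 34 with DESeq2, 31 with limma-voom, 30 without a filter and 29 with at least 1 CPM in 4 libraries, where 3 were not tested. Leaving out each replicate in turn left 11 to 12 members higher and 17 to 20 lower, 60 to 66 list members higher and 45 to 53 lower, and 4825 to 5160 of all genes higher and 4880 to 5333 lower. Without wild type replicates 1 and 3, which hold liver and airway transcripts, 10 members were higher and 19 lower, as were 4332 and 4495 of all genes. When the fit also held a term for skeletal muscle content, 1 member (the marker Slc6a14, from which nothing is read) was higher and 0 lower, 0 list members were higher and 0 lower, and 18 of all genes were higher and 0 lower; the cause was not tested, and the muscle sums of the genotypes do not overlap. Under it the log2 fold change turned for Atf4 (-0.04), Eif2ak4 (-0.53), Myc (-0.96), Slc38a10 (-0.02), Slc38a7 (0.30), Slc3a2 (-0.24), Slc6a19 (0.24), Slc6a4 (0.66), Slc6a8 (0.76), Slc7a6 (-0.39) and Slc7a7 (-0.48). Values near 0 turned elsewhere. Slc38a6 (between -0.16 and 0.08 with 1 library left out) was 0.08 without wild type replicate 4, 0.03 without EoE33 replicate 2 or 4 and 0.13 without wild type replicates 1 and 4, a choice that also gave 0.07 for Slc38a1. Slc7a6 (between -0.07 and 0.14 with 1 library left out) was -0.01 without wild type replicate 3, -0.01 without wild type replicates 1 and 3, and -0.07 without EoE33 replicate 2. The log2 ratio of the SLC6 sum was 1.10 with union exons and 0.88 with the longest transcript, and it was -0.50 without Slc6a14; that of all carriers was 0.49, and -0.03 without Slc6a14, both added after seeing the data. The wild type ratio of Slc3a2 to its light chains was 1.05 without Slc7a10. All of these follow from the changed lengths or members. Replicate numbers showed no sign of pairing the mice. Deviations of same-numbered libraries correlated between -0.128 and 0.124, and those of differently numbered ones between -0.143 and 0.145. Shared litters or batches were not tested. With the replicate number as a block, 11 members were higher and 22 lower, the added one being Slc36a2, with 62 and 50 list members and 4936 and 5120 of all genes. Depth limits the 21 untested members to statements on counts.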

Other observations

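Some genes on the lists of other carriers and of regulators were named after their values were seen. Cltrn, which encodes a surface partner of Slc6a19 in kidney, was not tested, with means of 0.0746 CPM in wild type against 0.0125 CPM in EoE33. Slc15a1, a proton-coupled carrier of small peptides best known from intestine, fell from 50.9 ± 3.39 to 9.59 ± 6.29 CPM (SD over 4 mice; 5.27-fold lower, edgeR adjusted p = 0.00351). Slc16a10, a facilitative carrier of aromatic amino acids, fell from 23.3 ± 0.498 to 7.91 ± 2.81 CPM (edgeR adjusted p = 0.000208).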
